A study of Mus musculus with 24 samples.

Results

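The comparison described here is the mRNA response of mouse E14 embryonic stem cells to an inhibitor of tRF-GG. It uses 8 of the 24 libraries of the study and all 23917 gene rows of its RNA table. The inhibitor group holds 4 RNA libraries from cells transfected with oligonucleotides that contain locked nucleic acid (LNA, a nucleotide chemistry that tightens base pairing) and are antisense to tRF-GG. The GFP group holds 4 RNA libraries from cells transfected with a GFP esiRNA, a pool of short interfering RNAs cut enzymatically from a long double-stranded RNA, which served as the control. Mock transfection gave 4 more RNA libraries, and each of the 3 treatments also has 4 libraries of ribosome footprints (RNAs of 26 to 32 nucleotides recovered from RNase-treated ribosomes). E14 is a single established line of mouse embryonic stem cells, all groups are of that line, and the reagents of the inhibitor and GFP groups differ in chemistry as well as in target. Nothing in the labels says that the numbered libraries came from separate cultures, so p-values measure the spread between these libraries, which may be technical.

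tRF-GG is a fragment from the 5′ end of glycine tRNAs, one of a class of tRNA fragments that have been linked to the control of transcripts driven by endogenous retroelements. In mouse embryonic stem cells a rare and transient cell state expresses genes otherwise seen in the embryo at the 2-cell stage, and many of these transcripts start in, or lie next to, long terminal repeats of the MERVL retroelement. Families such as Zscan4, Tcstv, Tdpoz, Usp17l and the Pramel genes mark that state, and chromatin regulators such as Trim28, Kdm1a and the Chaf1 subunits keep it rare.

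Levels are given as scaled FPKM, the deposited FPKM (fragments relative to transcript length and library total) after scaling between libraries. A log2 difference is the mean of log2(scaled FPKM + 1) in the inhibitor libraries minus that in the GFP libraries, a scale that understates the change of low genes. Genes with a mean of at least 0.5 scaled FPKM over the 12 RNA libraries were tested, 12557 in all. Over these genes the median log2 difference was -0.01, with the middle 50% between -0.16 and 0.13, and 104 genes lay above 1 and 56 below -1. Differences were tested with limma and Benjamini-Hochberg adjustment at 0.05, without pairing (the unpaired fit) and with the library number as a block (the paired fit). In this text "rose" and "fell" are used only for genes past that threshold in the paired fit.

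In the unpaired fit 1 gene was higher (0.00796% of the genes tested), Tdpoz4, and 1 was lower (0.00796%), Bcas3. In the paired fit 29 genes rose (0.231%) and 3 fell (0.0239%). At an unadjusted p under 0.05 the unpaired limma fit gave 391 genes (3.11%) and the paired fit 861 (6.86%). The paired fit over the 8 inhibitor and GFP libraries alone called 17 higher (0.136%) and 1 lower (0.00797%). The 29 risers were higher in all 4 numbered pairs (8.52% of all genes tested were) and the 3 fallers lower in all 4 (9.32% were). In 19 of the 29 all 4 inhibitor libraries lay above all 4 GFP libraries (1.09% of all genes tested). The genes were called from these same libraries, so these counts describe them and are no test. Of the 29, 19 averaged at least 0.5 scaled FPKM over the GFP and mock libraries. The others passed the filter only through the inhibitor libraries, where they are high. Among the 29, 12 belong to a list of 54 genes drawn up for the 2-cell state (11 without Sbsn, which is not a known marker of it), 25 are annotated as protein coding, 2 as pseudogenes and 2 as long noncoding RNAs. The 3 that fell, Bcas3, Plekha5 and Ptprg, are long genes of 173 to 689 kb, and 4.6% of the tested genes with a known span are at least as long as the shortest of them. Many of the risers were nearly silent in the control: 15 of the 29 averaged under 1 scaled FPKM in the GFP libraries, and 14 were listed at 0 in at least 1 GFP library.

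Libraries numbered 1 stood apart. Rn45s, the precursor of ribosomal RNA, took 62.7% of the summed FPKM in inhibitor library 1, 18.1% in GFP library 1 and 1.68% to 5.25% in the other 6 libraries. Inhibitor library 1 had 6697 genes at 1 FPKM or more and the other 7 had 10748 to 11884. Depth relative to the deepest RNA library, estimated from low values, was 38.1% to 69.3% in the inhibitor and 25.8% to 99.3% in the GFP libraries, and absolute depth is unknown. The 6 most abundant genes besides Rn45s were Gm20594, Lars2, Rpph1, Rmrp, Mir6236 and Eef1a1; none was called, and Lars2 reached 145700 scaled FPKM in inhibitor library 1 against 263 to 723 in the other 3. Without the libraries numbered 1 the paired fit called 9 genes higher and 0 lower, and the 9 are all among the 29. Without those numbered 3 it called 1 higher and 0 lower, and without those numbered 2 or 4 it called 10 and 30 higher, of which 10 and 23 are among the 29. In each of these fits all 29 kept a log2 difference of at least 0.94, and all 3 fallers one of -0.93 or lower. These genes were chosen for their differences in the same libraries, most of which each fit reuses, so the sizes that persist are no test.

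The promoters of several risers share sequence, and these are shown because they are common to genes on different chromosomes that rose. RefSeq windows (GRCm38.p6, from 250 bases before the annotated start to 50 after it) were found for 21 of the 32 genes, 25 windows in all. A run of 45 identical bases lies directly before the start of Sp110 (minus strand, chr1:85603892-85604141), B020004J07Rik (named Pramel17 in RefSeq, minus strand, chr4:101844023-101844272) and Gm8994 (named Eif4a3l1 in RefSeq, plus strand, chr6:136327289-136327538). D17Ertd648e (minus strand, chr17:11883190-11883439) holds the same run and did not pass in the paired fit over 12 libraries. The 250 bases before each start are printed 5′ to 3′ with the shared run in capitals.

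Sp110: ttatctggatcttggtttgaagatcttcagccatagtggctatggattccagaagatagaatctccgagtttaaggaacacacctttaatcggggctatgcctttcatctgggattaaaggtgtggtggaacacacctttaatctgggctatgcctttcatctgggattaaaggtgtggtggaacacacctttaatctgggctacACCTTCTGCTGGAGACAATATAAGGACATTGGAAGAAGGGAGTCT
B020004J07Rik: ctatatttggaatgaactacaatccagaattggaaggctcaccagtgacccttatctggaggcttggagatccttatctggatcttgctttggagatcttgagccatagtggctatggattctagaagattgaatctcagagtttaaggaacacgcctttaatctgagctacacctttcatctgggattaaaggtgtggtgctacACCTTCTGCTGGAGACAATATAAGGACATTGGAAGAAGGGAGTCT
Gm8994: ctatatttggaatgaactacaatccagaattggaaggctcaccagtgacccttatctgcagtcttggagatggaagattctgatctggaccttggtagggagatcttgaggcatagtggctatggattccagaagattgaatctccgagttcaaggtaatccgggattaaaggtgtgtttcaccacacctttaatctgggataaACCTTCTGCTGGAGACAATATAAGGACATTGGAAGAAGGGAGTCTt
D17Ertd648e: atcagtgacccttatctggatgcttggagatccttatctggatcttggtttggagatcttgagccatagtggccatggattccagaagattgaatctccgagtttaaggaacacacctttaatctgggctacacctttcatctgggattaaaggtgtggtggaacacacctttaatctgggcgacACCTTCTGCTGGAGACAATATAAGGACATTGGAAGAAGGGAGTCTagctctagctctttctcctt

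The run was present in 19 of the 32851 RefSeq windows (0.0578%), on either strand, and these belong to 18 genes. Of the 18, 8 were tested. Sp110, Gm8994 and B020004J07Rik rose, with log2 differences of 2.34, 2.71 and 1.42. D17Ertd648e and Gm4340 were higher by 2.37 and 1.41 and did not pass (paired limma adjusted p = 0.60 and 0.73). Gm20765 stood at 39.0 scaled FPKM in inhibitor library 1 and was listed at 0 in the other 7 libraries. It did not pass either (paired limma adjusted p = 0.93). The remaining 2 carriers, Arih2 and Sgk1, had log2 differences of -0.27 and -0.16 and did not pass. RefSeq gives 2 start windows for Arih2, 6 for Sgk1, 2 for Sp110 and 1 for each of the other tested carriers. Of the 2 windows of Sp110 only the printed one holds the run. Each gene has 1 value, and which start was used was not tested. The run was found among genes already called, so these values describe its carriers and are no test of the run.

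The run contains TATAA, the core of the TATA box that positions transcription starts. The motif TATAA, read on the gene's strand, lay 20 to 40 bases before the start in 9 of the 21 windows of risers. The share was 3.52% over all windows, and 0 of the 4 windows of the genes that fell held it there. The 9 are not independent. Sp110, Gm8994 and B020004J07Rik are among them and carry the shared run, and those of Gm4858 and Gm10696 share 29 bases. The share among risers is therefore no test of the motif. Median GC content was 45.3% over the riser windows and 52.7% over all windows, and the windows of the fallers ran from 53.7% to 83.7%. Zfp352 (plus strand, chr4:90218570-90218819) holds TATAA without the run, printed in capitals below. Tdpoz4 (plus strand, chr3:93796148-93796397) and Gm4858 (named Tdpoz8 in RefSeq, plus strand, chr3:93073271-93073520) share a run of 130 bases, in capitals, that no other window of the table held. Gm4858 has 2 start windows, and the printed one lies inside the gene, which begins at position 93068823. Its window at that position holds TATAA 27 bases before the start. The longest run that this window shares with Tdpoz4 is 9 bases. Reads of near-identical genes are divided among them by an estimate, so the split between members of such families is uncertain.

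Zfp352: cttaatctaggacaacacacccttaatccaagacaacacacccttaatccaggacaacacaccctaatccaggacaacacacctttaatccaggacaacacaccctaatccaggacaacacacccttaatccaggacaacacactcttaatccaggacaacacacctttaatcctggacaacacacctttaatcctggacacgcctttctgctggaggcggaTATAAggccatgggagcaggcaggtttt
Tdpoz4: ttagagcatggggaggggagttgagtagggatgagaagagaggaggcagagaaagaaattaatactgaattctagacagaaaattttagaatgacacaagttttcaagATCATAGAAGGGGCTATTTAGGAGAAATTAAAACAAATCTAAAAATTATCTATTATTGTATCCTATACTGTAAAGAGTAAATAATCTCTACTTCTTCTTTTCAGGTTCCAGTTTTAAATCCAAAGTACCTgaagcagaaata
Gm4858: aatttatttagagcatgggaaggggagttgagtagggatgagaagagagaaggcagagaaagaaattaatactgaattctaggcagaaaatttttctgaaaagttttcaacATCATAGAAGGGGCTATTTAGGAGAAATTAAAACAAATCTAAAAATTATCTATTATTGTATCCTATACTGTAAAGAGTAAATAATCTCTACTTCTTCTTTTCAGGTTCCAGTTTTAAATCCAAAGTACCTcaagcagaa

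The Tdpoz genes, which encode proteins with a TRAF-like and a BTB/POZ domain and are transcribed in the early embryo, include the gene with the largest rise. In the inhibitor libraries numbered 1 to 4, Tdpoz4 stood at 34.8, 12.6, 14.8 and 4.42 scaled FPKM, and in the GFP libraries at 0, 0.185, 0.841 and 0. The lowest inhibitor library lay above the highest GFP library, and the numbered pairs differed by 5.16, 3.52, 3.10 and 2.44 on the log2 scale. The log2 difference was 3.56 (SE 0.50, limma adjusted p = 0.0323 unpaired and 0.00223 paired). Tdpoz5 rose by 2.39 (SE 0.23, paired limma adjusted p = 0.00208), with 14.5, 5.32, 5.74 and 2.40 scaled FPKM against 1.74, 0.10, 0 and 0. Tdpoz2 rose by 2.25 and Gm4858 by 2.45. Their groups did not overlap either, and Gm10696 (named Spopfm2 in RefSeq), which rose by 2.22, lies on the same chromosome 3 interval. All 5 genes start between positions 93068823 and 94174412 of chromosome 3 (GRCm38.p6). Tdpoz3 was higher by 0.93 (paired limma adjusted p = 0.56) and did not pass.

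A second cluster lies at the end of chromosome 13, where Tcstv3, AF067061 and AF067063, transcripts first described in 2-cell embryos, sit beside B020031M17Rik and Gm20767. Tcstv3 stood at 42.9, 15.9, 12.3 and 6.64 scaled FPKM in the inhibitor libraries and at 5.44, 1.56, 1.57 and 0.202 in the GFP libraries. In both groups library 1 was the highest and library 4 the lowest, and the pair differences were close together, at 2.77, 2.72, 2.38 and 2.67. The log2 difference was 2.63 (paired SE 0.22, paired limma adjusted p = 0.00118), with an unpaired adjusted p of 0.71. B020031M17Rik rose by 2.58, Gm20767 by 2.38, AF067063 by 2.01 and AF067061 by 1.95. In Gm20767 and AF067061 GFP library 1 reached 21.2 and 11.9 scaled FPKM, above the lowest inhibitor library, so that these groups overlapped while every pair was higher. Tcstv1 was higher by 2.04 (paired limma adjusted p = 0.33) and did not pass.

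Zfp352, a zinc finger gene and a standard marker of the 2-cell state, stood at 19.7, 8.33, 6.66 and 1.16 scaled FPKM in the inhibitor libraries and at 0.774, 0.278, 0.121 and 0 in the GFP libraries. The groups did not overlap, with a log2 difference of 2.57 (paired SE 0.38, paired limma adjusted p = 0.0185). Sp110, a nuclear body protein of the SP100 family, had 10.7, 8.30, 9.80 and 1.59 scaled FPKM against 0.923, 0.108, 0.485 and 0.439. Inhibitor library 4 was the lowest of its group and still above all GFP libraries. Sp110 rose by 2.34 (paired SE 0.35, paired limma adjusted p = 0.0185). Gm8994 had 39.2, 25.5, 17.5 and 7.06 scaled FPKM against 7.06, 1.30, 1.23 and 1.09, where GFP library 1 met the lowest inhibitor library. It rose by 2.71 (paired SE 0.29, paired limma adjusted p = 0.00236). Usp17le, of a family of deubiquitinases, rose by 1.66 and Gm8300 by 1.74.

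**Figure D1:**
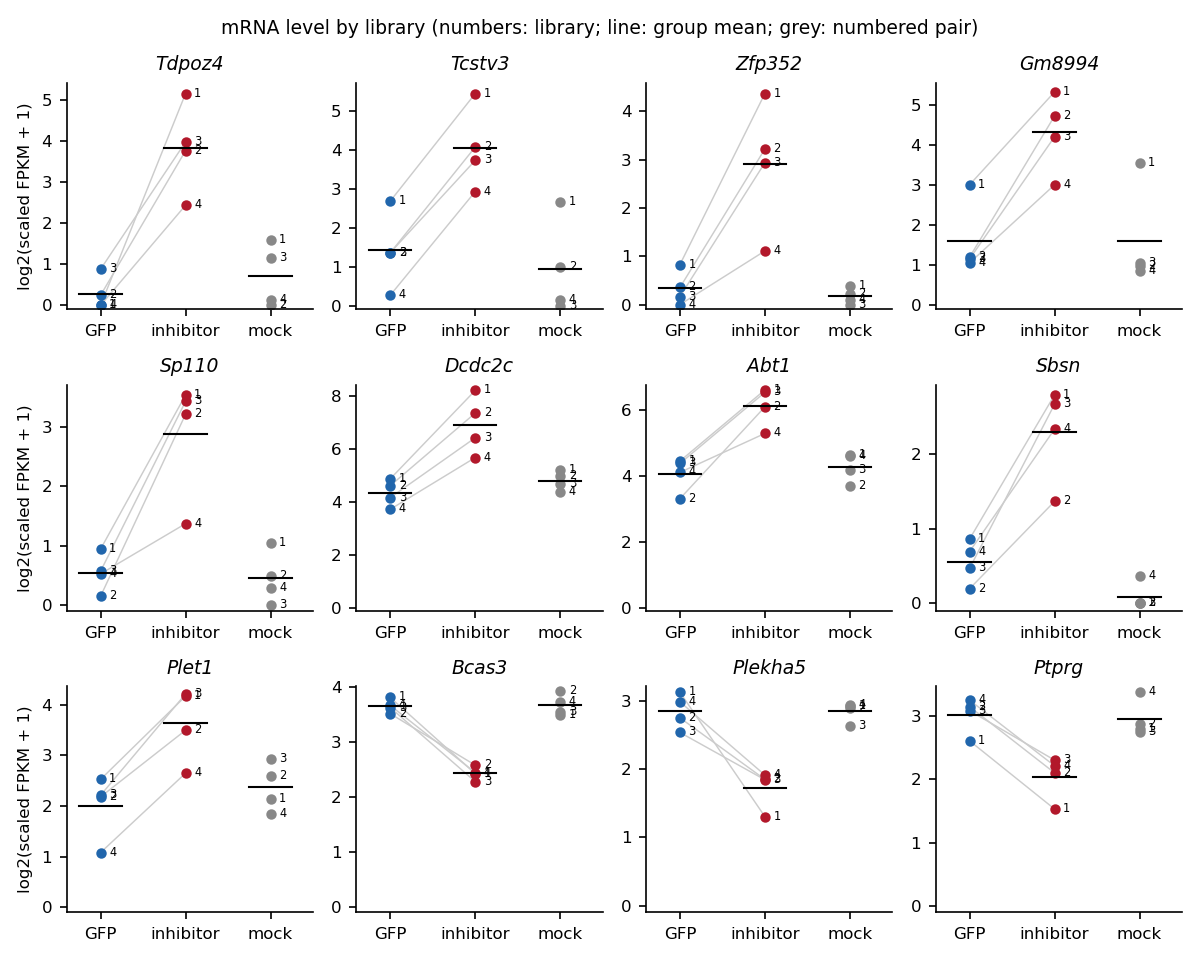
Log2(scaled FPKM + 1) of 12 genes in each RNA library of the GFP, inhibitor and mock groups (4 libraries each). Points are libraries with their number, black lines group means, and grey lines join the inhibitor and GFP libraries of the same number. In 11 of the 12 genes the inhibitor and GFP groups do not overlap; in Gm8994 GFP library 1 meets inhibitor library 4, and the mock libraries lie near the GFP libraries in most genes.

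The 2-cell list as a whole had 54 genes, of which 48 are in the table and 43 were tested. It was written with earlier results of these data known, and it holds Sbsn and Zfp809, which are not known markers of the 2-cell state. Of the 43, 40 lay above 0, and the median log2 difference was 1.19, against 47.6% of all tested genes above 0 and a median of -0.01. The groups did not overlap, with all 4 inhibitor libraries higher, in 12 of the 43 (1.09% of all tested genes), and 12 rose in the paired fit (0.231% of all tested genes). Without Sbsn and Zfp809, 39 of 41 lay above 0 and 11 rose. Members nearly silent in the control could enter the test only through the inhibitor libraries, where they are high: 11 of the 43 averaged under 0.5 scaled FPKM over the GFP and mock libraries. Of the 32 that reached 0.5 without the inhibitor libraries, 29 lay above 0, with a median of 0.88, and 6 rose. In 4 of the 32 all inhibitor libraries lay above all GFP libraries. Among the 12349 genes of the table that met the same condition 46.8% lay above 0 and 19 rose. In 103 of these all inhibitor libraries lay above all GFP libraries. Pair medians were 1.54, 1.27, 1.52 and 0.35, so the libraries numbered 4 differed least. Summed scaled FPKM of the list were 575, 335, 244 and 84.6 in the inhibitor libraries and 188, 104, 69.2 and 48.1 in the GFP libraries. In bulk RNA, more cells in a state and more RNA per cell of that state cannot be told apart.

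The members of the list did not move alike. The Zscan4 genes, telomere-associated factors that mark the same state, gave log2 differences of 0.03 (Zscan4a), -0.26 (Zscan4b), -0.03 (Zscan4c), 0.31 (Zscan4d) and 0.20 (Zscan4f), and none passed. Zscan4f averaged 8.37 scaled FPKM in the inhibitor libraries and 6.68 in the GFP libraries. Dux, the transcription factor that activates many MERVL-linked genes, averaged 0.814 against 0.396 scaled FPKM (log2 difference 0.34, paired limma adjusted p = 0.93). Arg2, an arginase, and Abcb5, a membrane transporter, were higher by 1.69 and 1.19 without overlap of the groups, and both had a paired limma adjusted p of 0.058, just outside the threshold. The gene just inside the threshold among the rises was 1700030L20Rik, a long noncoding RNA with an adjusted p of 0.0456. The most abundant members, Calcoco2 and Zfp809, differed by 0.08 and -0.16.

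Of the 29 risers 17 lie outside the list. Dcdc2c, a gene with a doublecortin domain, was the most abundant of all risers, at 297.6, 164, 85.5 and 50.5 scaled FPKM in the inhibitor libraries and 28.6, 23.7, 17.1 and 12.3 in the GFP libraries. The lowest inhibitor library was above the highest GFP library, and the log2 difference was 2.57 (paired SE 0.23, paired limma adjusted p = 0.00142). Abt1, a nucleolar protein and activator of basal transcription, stood at 96.0, 66.9, 91.2 and 37.9 scaled FPKM against 20.7, 8.86, 19.7 and 16.1. Its groups did not overlap, and its log2 difference was 2.07 (paired SE 0.26, paired limma adjusted p = 0.00716). Gm7102 rose by 2.07, with 241, 132, 66.4 and 25.2 scaled FPKM against 38.1, 24.1, 15.1 and 10.6, where the groups overlapped. Both pseudogenes, Gm4971 and Gm11517, rose by 2.30 and 2.24.

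Sbsn, suprabasin, a secreted protein of the epidermis, had 5.94, 1.58, 5.37 and 4.05 scaled FPKM against 0.820, 0.147, 0.386 and 0.620. The groups did not overlap, and the log2 difference was 1.74 (paired SE 0.24, paired limma adjusted p = 0.0131). Plet1, a surface protein of trophoblast progenitors, had 16.9, 10.3, 17.5 and 5.26 scaled FPKM against 4.75, 3.53, 3.63 and 1.11. It rose by 1.63 without overlap of the groups (paired SE 0.22, paired limma adjusted p = 0.0127). Krtap4-13, a keratin-associated protein, stood at 4.41, 1.55, 2.80 and 0.655 scaled FPKM in the inhibitor libraries and was listed at 0 in all GFP and all mock libraries, so no fold is given. Grhl2, a transcription factor of epithelia, rose by 0.99, the smallest rise, with 10.7, 3.49, 9.05 and 9.29 scaled FPKM against 4.43, 1.12, 4.45 and 4.61. Both groups had their lowest value in library 2, and the groups overlapped. Hspb11, a subunit of the intraflagellar transport machinery, rose by 1.57, and B020004J07Rik, Gm5617, 1700030L20Rik and 5430402O13Rik rose by 1.42, 1.09, 1.86 and 1.19.

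**Figure D2:**
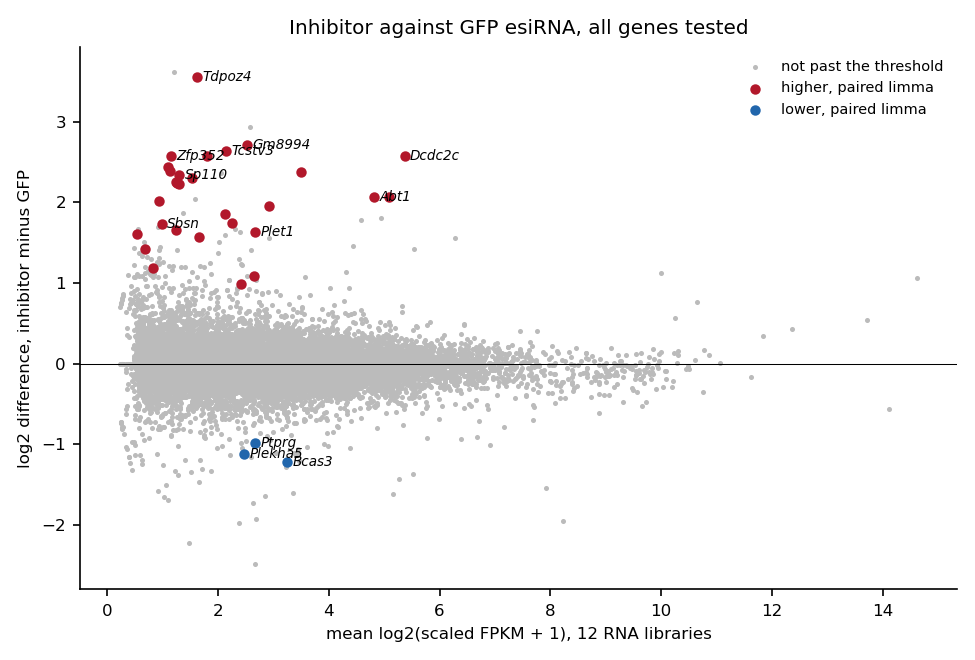
Log2 difference of inhibitor minus GFP (vertical axis) against mean log2(scaled FPKM + 1) over 12 RNA libraries (horizontal axis) for the 12557 genes tested. Red points are the 29 genes that rose and blue points the 3 that fell in the paired fit. Most risers lie at low levels, and Dcdc2c and Abt1 are among the few at higher ones.

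All 3 genes that fell had inhibitor libraries that lay entirely below the GFP libraries (1.2% of all tested genes did). The 3 were called from these same libraries, so the separation describes them and is no test. Bcas3, a protein linked to autophagy and the cytoskeleton, stood at 4.35, 4.95, 3.84 and 4.42 scaled FPKM in the inhibitor libraries and at 13.0, 10.4, 11.3 and 11.6 in the GFP libraries. No inhibitor library came near the GFP range, and the log2 difference was -1.22 (SE 0.17, limma adjusted p = 0.0323 unpaired and 0.00728 paired). Plekha5, which carries a pleckstrin homology domain, had 1.47, 2.61, 2.59 and 2.77 scaled FPKM against 7.74, 5.74, 4.81 and 6.93. Inhibitor library 1 lay well below the other 3 of its group. Its log2 difference was -1.12 (paired SE 0.19, paired limma adjusted p = 0.0449), without overlap. Ptprg, a receptor-type tyrosine phosphatase, had 1.88, 3.28, 3.92 and 3.62 scaled FPKM against 5.07, 7.81, 7.43 and 8.46. It gave -0.98 (paired SE 0.17, paired limma adjusted p = 0.0498) and was the gene just inside the threshold among the falls. Just outside lay Tenm4, a teneurin adhesion protein, at -0.96 with a paired adjusted p of 0.0533. Bcas3 spans chr11:85353110-85826058, Plekha5 chr6:140423639-140597110 and Ptprg chr14:11553440-12242041 (GRCm38.p6).

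Long genes as a class lay lower in the inhibitor libraries. The class over 200 kb includes Bcas3 and Ptprg but not Plekha5. The 444 tested genes that span over 200 kb had a median log2 difference of -0.19, and 345 of them (77.7%) lay below 0, against 52.2% of all tested genes. In 36 of the 444 (8.11%) all 4 inhibitor libraries lay below all 4 GFP libraries, against 1.2% of all tested genes, and in 1 they lay above. The median was 0.02 under 10 kb, 0.00 from 10 to 50 kb and -0.06 from 50 to 200 kb. Pair medians of the genes over 200 kb were -0.23, -0.27, -0.12 and -0.20. Relative to the median of all genes, the class median lay lower under each of the 25 settings, with differences of -0.08 to -0.24. These genes are also less abundant, with a median level of 3.01 scaled FPKM against 6.93 for all tested genes, and the part of level in the shift was not tested. In the footprint libraries 199 of the 301 measured long genes (66.1%) lay below 0, against 47.0% of all genes, with a median of -0.08.

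**Figure D3:**
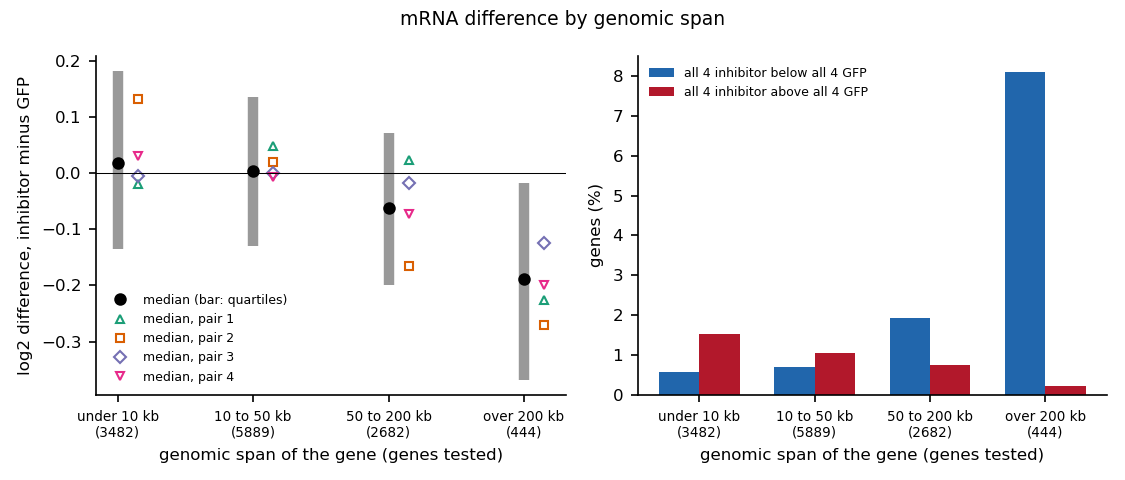
Left, median log2 difference of inhibitor minus GFP by genomic span, with quartiles (bars) and the medians of the 4 numbered pairs. Right, percent of genes in each span class whose inhibitor libraries all lie below (blue) or all above (red) the GFP libraries. Genes over 200 kb have a median of -0.19, and 8.11% of them lie below without overlap.

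Among the long genes without overlap, those with the smallest paired p after Bcas3 and Ptprg were Smyd3, a methyltransferase, and Erc1, a scaffold protein of the cell cortex. They were chosen after their values were seen. Smyd3 had 0.588, 2.35, 0.964 and 2.37 scaled FPKM in the inhibitor libraries against 2.77, 3.86, 3.95 and 6.0, a log2 difference of -1.04 (paired limma adjusted p = 0.078). Erc1 had 4.24, 4.33, 4.07 and 5.45 against 8.0, 6.68, 7.04 and 9.41, a log2 difference of -0.67 (paired limma adjusted p = 0.11). Neither passed the threshold. Among the most abundant long genes, Tns3, a tensin, gave -0.17 and Snd1, a nuclease, -0.04. With the filter raised to a mean of 5 scaled FPKM, the median of the genes over 200 kb was -0.22, beside -0.02 for all genes.

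The footprint libraries offered a second assay of the same treatments in other libraries. Of the 29 risers 27 could be tested there, and 27 lay above 0, with a median log2 difference of 1.91. Over all footprint genes 52.9% lay above 0 and the median was 0.01. The filter on footprints counted the inhibitor libraries too. Risers nearly silent in GFP footprints, such as Tdpoz2 (mean 0.115 scaled FPKM) and Gm4858 (0.189), could pass it largely through them. The count above 0 was therefore partly fixed in advance and is no test of the risers. In the paired footprint fit 3 of the 27 passed (0.0281% of the genes tested, with 0.0469% lower): Sp110 at 2.85 (paired limma adjusted p = 0.0151), Plet1 at 1.43 (0.0151) and Gm4858 at 2.29 (0.0299). Dcdc2c had a footprint difference of 3.11 (paired limma adjusted p = 0.0864), Tdpoz4 of 2.35 (0.192) and Abt1 of 1.34 (0.197), and these did not pass. All 3 fallers lay below 0 in footprints, Bcas3 at -1.08 (paired limma adjusted p = 0.0672), Plekha5 at -0.63 and Ptprg at -0.39. Whether a footprint library and an RNA library of the same number came from one culture is not stated.

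**Figure D4:**
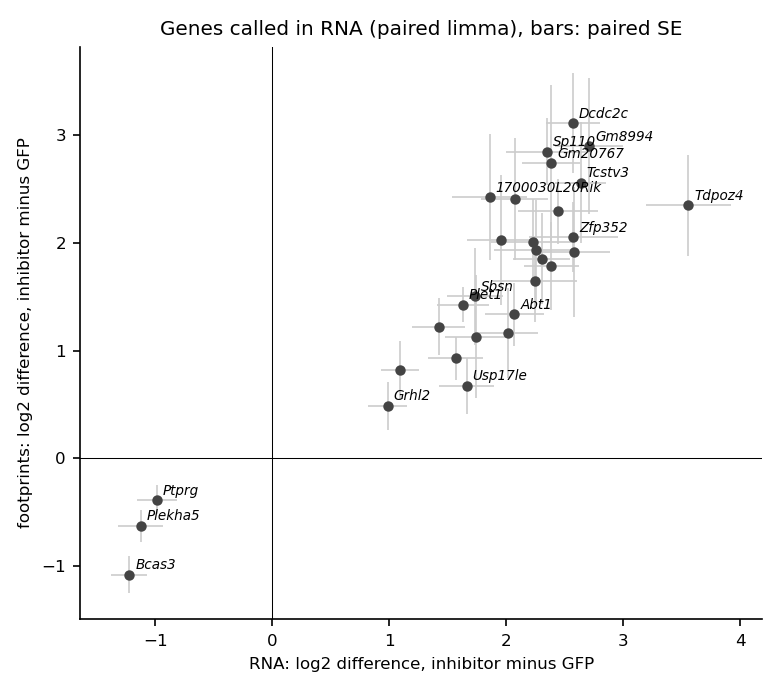
Log2 difference of inhibitor minus GFP in RNA (horizontal axis) and in ribosome footprints (vertical axis) for the 30 genes called in the paired RNA fit and tested in footprints. Bars are standard errors of the paired fits. The 27 risers lie above 0 and the 3 fallers below 0 on both axes.

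The mock libraries give a second reference for the inhibitor, and the comparison with them uses the same 4 inhibitor libraries, so the values are set side by side only. In the paired fit against mock, 31 genes were higher (0.247%) and 3 lower (0.0239%). Of the 29 risers 26 passed against mock, and 2 of the 3 fallers. Tdpoz4 differed from mock by 3.12, Tcstv3 by 3.11, Dcdc2c by 2.11, Abt1 by 1.85 and Bcas3 by -1.24, beside 3.56, 2.63, 2.57, 2.07 and -1.22 from GFP. The mean of Abt1 in the mock libraries was 19 ± 5.61 scaled FPKM (SD, n = 4), beside 16.4 ± 5.37 in the GFP libraries and 73 ± 26.6 in the inhibitor libraries. Those of Sbsn were 0, 0, 0 and 0.295, below the GFP mean of 0.493.

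The 24 naive and core pluripotency factors had a median log2 difference of -0.15, with 8 above 0, and a median of -0.06 without the libraries numbered 1. In the paired fit 0 passed, for them as for the lists below except where a member is named as called; with 0.231% of all genes higher and 0.0239% lower, such a count says nothing about a list of this size. Pou5f1, the Oct4 transcription factor, stood at 760 ± 328 scaled FPKM (SD, n = 4) in the inhibitor libraries and 771 ± 282 in the GFP libraries. The exception in level was Dppa3, a maternal-effect gene of germ cells and oocytes, with 7.12, 0.967, 1.40 and 1.31 scaled FPKM against 0.729, 0.255, 0.341 and 0, without overlap (log2 difference 1.23, paired limma adjusted p = 0.21). Repressors of retroelements had a median of -0.12 over 19 genes. Trim28, the KRAB zinc finger corepressor, gave 497 ± 137 against 512 ± 163 scaled FPKM. Hdac1, a histone deacetylase, lay at 65.7, 71.5, 84.0 and 84.5 scaled FPKM against 87.3, 85.2, 84.7 and 86.8, a log2 difference of -0.18 (paired limma adjusted p = 0.90).

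The label of the cells was checked against short sets of defining markers and against longer lists. Summed markers of the stem cell were 2217 to 3284 scaled FPKM in the inhibitor libraries and 2400 to 3199 in the GFP libraries. Fibroblast markers, which feeder cells would bring, summed to 5.71 to 13.8 and 3.61 to 7.39, with Dcn and Lum at 0 in all 8 libraries. Most of the difference between these sums is Thy1, with means of 8.21 and 3.75 (log2 difference 0.92, paired limma adjusted p = 0.19). The longer fibroblast list also holds Fn1, fibronectin (83.9 and 114 scaled FPKM), and Vim, vimentin (90.3 and 96.9), which other cells make too, and it summed to 141 to 252 in the inhibitor and 148 to 296 in the GFP libraries. Primitive endoderm markers summed to 3.04 to 14.5 and 3.08 to 9.28, while the longer list, with Sparc and Lamc1 as its most abundant members, summed to 160 to 383 and 157 to 402. Trophoblast markers summed to 1.19 to 5.77 and 1.34 to 3.78, with Elf5 at 0 in 7 of 8 libraries, and the longer list, led by Peg10, to 112 to 257 and 91.2 to 228. Their part in the rise of Plet1 was not tested. Of the 11 tested trophoblast genes 10 lay above 0 (median 0.28), and without scaling the list median was -0.14, beside -0.39 for all genes; Plet1 was the member called.

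Core histone transcripts lay lower in the inhibitor libraries, unevenly across the pairs. Of the 59 tested replication-dependent core histones, which package newly made DNA, 52 lay below 0, and the median log2 difference was -0.29. Pair medians were -0.97, 0.03, -0.21 and -0.09. Without the libraries numbered 1 the median was -0.04 and 35 of 60 core histones lay below 0. Among all genes tested in that setting 6234 of 12509 did. The size of the difference and the count below 0 thus both depend on that pair. In 5 of the 59 all inhibitor libraries lay below all GFP libraries (1.2% of all tested genes). These are Hist1h2bc, Hist1h2bh, Hist1h2bm, Hist3h2a and Hist3h2ba, named after their values were seen. Hist3h2a had 31.2, 41.0, 29.7 and 40.2 scaled FPKM against 79.0, 72.3, 54.8 and 67.3, a log2 difference of -0.93 (paired limma adjusted p = 0.063). Npat, the activator of histone gene transcription, had 3.59, 5.79, 4.30 and 2.81 against 6.81, 17.2, 6.4 and 6.31 scaled FPKM, also without overlap, at -0.90 (paired limma adjusted p = 0.22).

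Genes of translation and of tRNA metabolism had list medians near that of all genes. These were -0.10 over 48 large-subunit and -0.05 over 33 small-subunit ribosomal proteins, 0.01 over 55 mitochondrial ribosomal proteins, -0.04 over 34 translation factors and -0.03 over 21 aminoacyl-tRNA synthetases. Without the libraries numbered 1 the medians of both cytosolic ribosomal lists and of the synthetases turned to 0.02, 0.04 and 0.02, and the pair medians of the large subunit ran from -0.42 in pair 1 to 0.22 in pair 2. Genes of tRNA cleavage, modification and small RNA pathways had a median of -0.02 over 18 members. Gars, the glycyl-tRNA synthetase, stood at 137 ± 6.61 scaled FPKM (SD, n = 4) in the inhibitor and 138 ± 8.04 in the GFP libraries. Nsun2, a tRNA methyltransferase, had 50.1 ± 5.59 against 46.4 ± 3.35.

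The 19 tested interferon and nucleic acid sensing genes had a median of -0.03, the 24 chaperones -0.01, the 24 ATF4 targets -0.12 and the 21 p53 targets 0.10. Of the p53 targets 17 lay above 0, but without the libraries numbered 1 the median was 0.03 and 9 lay below 0. Perp, an apoptosis effector, had 36.5, 27.4, 38.1 and 30.7 scaled FPKM against 24.9, 23.6, 24.1 and 21.9 without overlap (log2 difference 0.46, paired limma adjusted p = 0.28). Immediate early genes had a median of 0.18 over 17 members, and germline genes silenced in stem cells 0.21 over 15. Without scaling, the medians of the p53, immediate early and germline lists were -0.39, -0.32 and -0.15, beside -0.39 for all genes. Of the 25 glycolysis and hypoxia genes 22 lay below 0 (median -0.16), and genes of the respiratory complexes lay at -0.08 over 75. Nuclear long noncoding RNAs lay at -0.18 over 16, LIF and FGF response genes at -0.14 over 19, cyclins and mitotic genes at -0.06 over 24, DNA replication genes at 0.04 over 35 and proteasome subunits at 0.01 over 31. Linker histones lay at -0.10, with pair medians of -0.62, 0.35, -0.42 and -0.07. Without the libraries numbered 1 their median was -0.01. Histone variants lay at -0.11 and histone processing genes at 0.04. Primed epiblast markers and primitive endoderm genes lay at 0.05 each, and fibroblast genes at -0.01.

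Imprinted genes had a median of -0.07 over 19 members, of which Grb10, an adaptor of insulin receptor signalling, stood apart without passing. Its levels were 45.5, 44.5, 50.1 and 66.9 scaled FPKM in the inhibitor libraries and 70.6, 76.2, 67.3 and 82.9 in the GFP libraries. The highest inhibitor library lay just under the lowest GFP library, and the log2 difference was -0.53 (paired limma adjusted p = 0.17).

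**Figure D5:**
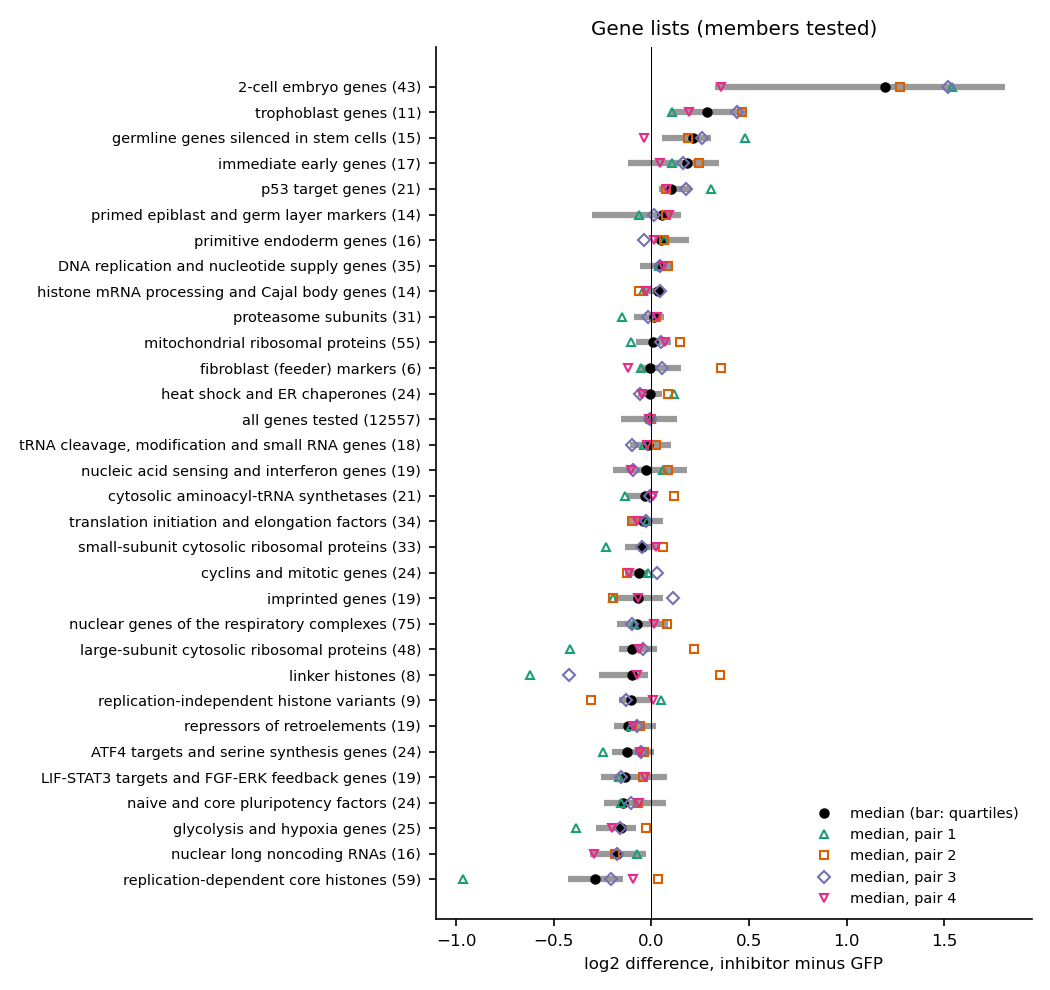
Median log2 difference of inhibitor minus GFP for 31 gene lists and for all genes tested (black points, quartiles as bars), with the medians of the 4 numbered pairs as open symbols and the number of tested members in brackets. The 2-cell list has a median of 1.19; the other lists lie between -0.29 and 0.28, and the core histones spread from -0.97 in pair 1 to 0.03 in pair 2.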

How the data were processed

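The deposited values are FPKM per gene symbol with 2 decimals, in 1 table for 12 RNA libraries and 1 for 12 footprint libraries; per the file headers each row pairs a symbol with RefSeq transcripts. The submitters' processing notes name CASAVA 1.8.2, TopHat, Bowtie2, RSEM and the mm10 genome; no other version is recorded there. FPKM are relative to a library's total, and RSEM divides reads that match several genes by an estimate. Columns were matched to samples by group and number.

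FPKM were scaled by a median of ratios over genes that reached 5 FPKM throughout a table (1717 in RNA, 2960 in footprints), and log2(scaled FPKM + 1) was tested with limma 3.58.1 in R 4.3.3 (trend, robust, two-sided, Benjamini-Hochberg, 0.05), over 12557 genes in RNA and 10661 in footprints with a mean of at least 0.5. All 12 libraries of an assay shared 1 estimate of spread. The unpaired fit was the main one and the replicate block an alternative. The pairing comes from the numbers in the titles; the labels state no shared day or culture. Deviations from group means correlated by 0.344, 0.611, 0.434 and 0.674 between inhibitor and GFP RNA libraries of the same number, all above the limit of 0.1, so the numbers were taken as pairs. No libraries held identical values (0 pairs). Scripts were tested on simulated data.

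The rule for named genes took those past the threshold in the unpaired fit, in the paired fit the 16 largest rises and the 8 largest falls, members of a list past the threshold in either, the 2 most abundant members of each list, and the 6 most abundant genes besides Rn45s. Other genes were named after their values were seen, among them the remaining paired calls, carriers of the promoter run, long genes and members whose groups do not overlap. The members, lists and tests were chosen with earlier results of these data known. Of the symbols 23769 (99.4%) matched a RefSeq symbol or synonym (GRCm38.p6), which gave coordinates, spans and promoter windows. Alternatives were pairing, the 8 libraries alone, pseudocounts, filters, scalings, limma settings and left-out libraries. Python 3.11.15 with pandas 2.3.3 and matplotlib 3.10.9 made tables and plots.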

Additional observations from a re-analysis of the deposited data

Results flagged for a closer look

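Of 214 groups of 4 libraries (107 named genes, inhibitor and GFP groups), 25 held a library far from the other 3 by Dixon's criterion. For normally distributed values chance flags about 1 in 20 groups. The criterion was applied to scaled FPKM without logs, and with 3 libraries at 0 it flags any value above 0. Some of the genes were named after their values were seen. The number of flags is therefore no test. GFP library 2 accounted for 9 and GFP library 1 for 7, while the libraries numbered 3 had 0. All values are scaled FPKM. In GFP library 1, Gm20767 stood at 21.2, Gm8994 at 7.06, Tdpoz5 at 1.74 and Usp17le at 1.91, each above the other 3 GFP libraries (2.48 to 4.15, 1.09 to 1.30, 0 to 0.10 and 0.174 to 0.278). In the same library Lars2, a mitochondrial leucyl-tRNA synthetase, stood at 14922, Peg10 at 146 and Atf4 at 139. In inhibitor library 1, Lars2 stood at 145700 against 263 to 723 in the other 3, Peg10 at 157, Gm20765 at 39.0 against 0, and Plekha5 at 1.47 against 2.59 to 2.77. GFP library 2 was high for Arih2 (44.5), Hsp90aa1 (2066), Slbp (64.3) and Gm4340 (1.90, against 0 in the other 3). It was low for Gapdh (1375), Hspa8 (1159), Rpl41 (903), Rps2 (1123) and Grhl2 (1.12, against 4.43 to 4.61). Inhibitor library 2 was high for Hist1h1c (1016) and Malat1 (258), and inhibitor library 4 for Trim28 (701) and Uhrf1 (127). GFP library 4 was low for Ybx1 (298).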

How the results depend on the processing

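The counts of called genes depended on the settings; no named gene with a call in either fit changed direction in any setting. The unpaired fit called 1 gene higher and 1 lower. The replicate block gave 29 and 3. With the 8 inhibitor and GFP libraries alone the counts were 0 and 0 unpaired (381 genes at an unadjusted limma p under 0.05, against 391 with all 12) and 17 and 1 with the block, of which 14 and 1 are among the 29 and 3. A pseudocount of 0.1 gave 0 and 1, a pseudocount of 5 gave 0 and 0, no filter 0 and 0, a minimum mean of 5 gave 0 and 1, quantile normalization 0 and 1, array weights 18 and 2, and no trend 1 and 1. FPKM as deposited gave 14 and 0, and moved the median of all genes to -0.39, so list medians under it are read against that shift. Without the libraries numbered 1 the counts were 0 and 0 unpaired and 9 and 0 with the block. The block without libraries numbered 2, 3 and 4, chosen after seeing the data, gave 10 and 2, 1 and 0, and 30 and 0. Leaving out single libraries gave 0 to 14 higher and 0 to 1 lower, and 14 came without inhibitor library 4. The causes of these moves were not tested. The 2-cell list median was above 0 in each of the 25 settings (0.49 to 2.16) and the core histone median below 0 (-0.85 to -0.04). Rises of genes at a few FPKM are limited by depth, which is known only in relative terms.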
